A study of Mus musculus with 16 samples.

Results

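Histone H3 trimethylated at lysine 27 (H3K27me3) is the repressive mark written by Polycomb repressive complex 2, with Ezh2 or its relative Ezh1 as the catalytic subunit. The mark covers developmental genes that a cell does not use, and it is read and diluted through cell division. In CD4 T cells it lies over genes of other lineages and of effector programs.

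Described here are gene intervals whose H3K27me3 ChIP density stayed over a fixed limit in Th0 cells from which Ezh2 had been deleted. An interval is a whole gene body as the authors counted it, and density is its reads scaled by the library total (CPM) per kb. A member had at least 1.5 CPM per kb and at least 20 reads in both Ezh2-deleted libraries, and a symbol that did not begin with Hox, Olfr, Vmn or Zfp. There were 169 members among 22269 intervals, or 0.827% of the 20432 intervals outside those name groups. The names are those in the authors' files; 9 members listed there under predicted names carry RefSeq symbols with one of these starts, 8 of them zinc finger (Zfp) genes and 1 a Vmn gene. Another 120 intervals over both limits carried one of the 4 name starts (84 Olfr, 21 Vmn, 9 Hox and 6 Zfp), and 128 intervals over the density limit had too few reads. Members were selected on their Ezh2-deleted densities, so densities and their ratios to control are descriptions without a test.

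The cells were mouse CD4 T cells, sorted as naive and activated with plate-bound anti-CD3 and soluble anti-CD28. Ezh2-deleted cells came from Ezh2 fl/fl.CD4Cre mice (Ezh2-/-), in which a Cre named for Cd4 acts in the T lineage, and controls came from Ezh2 fl/fl mice without Cre, called wild type in the labels. Th0 cells had IL-2 at 50 U, and induced regulatory T (iTreg) cells had IL-2 at 200 U and TGF-beta1 at 5 ng/ml. H3K27me3 was measured in Th0 cells only, in controls 33 and 7 and in Ezh2-deleted libraries 10 and 9. RNA was measured in 3 libraries for each genotype and culture: Th0 controls 173, 176 and 177, Th0 Ezh2KO.165, then Ezh2KO.174, then Ezh2KO.175, iTreg controls 154, 155 and 177, and iTreg Ezh2KO.150, then Ezh2KO.153, then Ezh2KO.165; values by library follow this order. The titles give day 4 for Th0 and day 5 for iTreg, and the protocol gives harvest on day 4. Ages are not given in the sources used here. The series calls the samples biological replicates.

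ChIP libraries held 11124172 to 15103496 counted reads and RNA libraries 21910114 to 28443427. Ezh2 RNA was 148 to 169 CPM in Th0 Ezh2-deleted libraries against 295 to 312 in controls, and 48.7 to 123 against 166 to 251 in iTreg; counts cover the whole gene, so exons outside the floxed part are included. Summed over 8 CD4 T cell markers, Th0 RNA was 2960 to 3079 CPM in controls and 1621 to 1916 in Ezh2-deleted libraries. In iTreg the CD4 T cell sum was 2780 to 3196 CPM in controls and 2268 to 3467 in Ezh2-deleted libraries, so the genotypes overlapped. There Cd5, Cd2 and Cd4 fell and Cd3g and Cd3e rose by edgeR's adjusted p. In Th0 2 CD8 markers summed to at most 10.01 CPM. In iTreg the CD8 sum was 18.01 to 26.7 CPM in controls and 39.6 to 138 in Ezh2-deleted libraries, where Cd8b1 rose by edgeR's adjusted p and Cd8a was 122, 117 and 17.7 CPM. Summed over 8 B cell markers it was 28.6 to 53.6 CPM in Th0 controls and 89.3 to 210 in Th0 Ezh2-deleted libraries, and 7 of the 8 rose by edgeR's adjusted p. In iTreg the B cell sum was 12.4 to 13.3 CPM in controls and 3.94 to 5.98 in Ezh2-deleted libraries, and 5 fell. For 4 NK cell markers the Th0 sum was 3.02 to 3.62 CPM in controls and 11.0 to 16.8 in Ezh2-deleted libraries, and the iTreg sum 21.2 to 31.6 and 83.3 to 111; 2 rose in Th0 and 3 in iTreg. The sum of 7 myeloid markers was 0.382 to 0.408 CPM in Th0 controls and 1.44 to 1.51 in Th0 Ezh2-deleted libraries. In iTreg it was 3.18 to 26.2 and 2.27 to 11.4, with Itgam at 24.7 CPM in iTreg control 177. Only 2 of these markers, Itgam and Fcgr3, had enough reads for a test, and neither was called. Fcgr3 had means of 0.039 CPM in Th0 controls and 0.652 in Th0 Ezh2-deleted libraries (edgeR's adjusted p = 0.075). Whether these cells had a part in the RNA results below was not tested.

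The 5 promoters printed here belong to members of both kinds described below, the highest in Ezh2-deleted density among those in RefSeq (GRCm38.p6) that overlapped no other interval. Each is the 250 bases before the gene's start on the gene's strand, and capitals mark every CG pair, the dinucleotide whose clusters (CpG islands) recruit Polycomb at many developmental genes. The first 3 belong to intervals under 50% of their control H3K27me3 density and the last 2 to intervals over it.
Tchh, chr3:93442080-93442329, plus strand: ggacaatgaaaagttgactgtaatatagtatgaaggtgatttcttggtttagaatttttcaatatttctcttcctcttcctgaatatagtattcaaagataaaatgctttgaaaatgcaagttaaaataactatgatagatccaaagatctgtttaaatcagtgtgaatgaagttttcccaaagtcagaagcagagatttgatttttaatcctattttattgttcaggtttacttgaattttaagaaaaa
Dio3, chr12:110278980-110279229, plus strand: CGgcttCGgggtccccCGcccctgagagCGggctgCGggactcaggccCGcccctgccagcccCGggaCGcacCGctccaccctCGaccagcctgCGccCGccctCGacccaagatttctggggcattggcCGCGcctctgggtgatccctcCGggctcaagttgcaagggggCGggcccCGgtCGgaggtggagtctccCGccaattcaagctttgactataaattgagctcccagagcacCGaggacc
Cdx2, chr5:147307250-147307499, minus strand: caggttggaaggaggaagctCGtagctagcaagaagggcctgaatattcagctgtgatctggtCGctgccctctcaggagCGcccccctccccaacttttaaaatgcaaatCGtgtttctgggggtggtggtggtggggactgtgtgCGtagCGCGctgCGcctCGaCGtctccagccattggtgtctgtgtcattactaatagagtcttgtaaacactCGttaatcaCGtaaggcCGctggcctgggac
Chl1, chr6:103510626-103510875, plus strand: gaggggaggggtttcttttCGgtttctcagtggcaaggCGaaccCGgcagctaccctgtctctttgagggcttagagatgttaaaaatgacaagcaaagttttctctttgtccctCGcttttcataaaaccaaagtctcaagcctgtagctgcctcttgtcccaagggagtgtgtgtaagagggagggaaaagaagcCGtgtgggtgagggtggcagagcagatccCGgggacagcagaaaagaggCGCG
4930468A15Rik, chrX:76602925-76603174, minus strand: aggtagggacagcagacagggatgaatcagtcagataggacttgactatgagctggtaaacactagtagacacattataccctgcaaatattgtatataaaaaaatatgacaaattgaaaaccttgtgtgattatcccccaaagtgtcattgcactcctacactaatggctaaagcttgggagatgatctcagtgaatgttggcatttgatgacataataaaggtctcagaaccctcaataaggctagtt
Dio3, the deiodinase that inactivates thyroid hormone, had 21 CG pairs, and Cdx2, a homeobox factor of trophectoderm and intestine, had 13. Chl1, a neural cell adhesion molecule, had 8. Tchh, which encodes trichohyalin of the hair follicle, and 4930468A15Rik had 0. CG reads the same on both strands and was searched alone. Of 14332 promoters of matched intervals, 96.0% held at least 1 CG and 57.9% held at least 10 in this window. Only 106 of 169 members (62.7%) had a promoter in the table, under the 80% needed, so CG content was not compared over the members.

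The density limit lay close to the general level of the Ezh2-deleted libraries. Over all intervals their median density was 0.971 (library 10) and 0.904 CPM per kb (library 9), and among intervals without overlap 90% lay between 0.737 and 1.53 in library 10 and between 0.662 and 1.71 in library 9. The same span was 0.361 to 2.98 in control 33 and 0.259 to 3.43 in control 7. Input and spike-in libraries were not analysed here, so a density holds the background as well as the mark. With a Poisson interval of 95% on its reads, 79 of 169 members lay over the limit in both Ezh2-deleted libraries, 6 of the 55 and 73 of the 114 into which the members are divided below. The members just inside the limit were Gm3259, Lce1h and Nes, whose lower Ezh2-deleted densities were 1.501, 1.502 and 1.51. Just outside were 2210408I21Rik, Nanos2 and Sost at 1.498 each.

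Against their own control density, the members fell into 2 kinds. In 55 the Ezh2-deleted mean was under 50% of the control mean, with a median of 24.0% (range 19.0% to 48.3%). In the other 114 the median was 123% of control (range 51.5% to 287%). The split at 50% was set after the values were seen, and 5 members lay within 0.25 of it on the log2 scale. The count of such reduced members moved with the rule: it was 290 without Ezh2-deleted library 10, 85 without library 9, 27 with TMM scaling, which assumes that most intervals do not change, and 2 at a limit of 2 CPM per kb. Both Ezh2-deleted libraries were below both controls in 69 members and above both in 76, against 31.1% and 47.6% of all 20976 intervals with reads. The label of marked intervals that keep H3K27me3 therefore holds only in part. The 55 had a remainder, background included, of a high control density, which the limit and the 50% split together require. The 114 had a density near their control level, and 72 of them were over both limits in both controls as well.

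**Figure D1:**
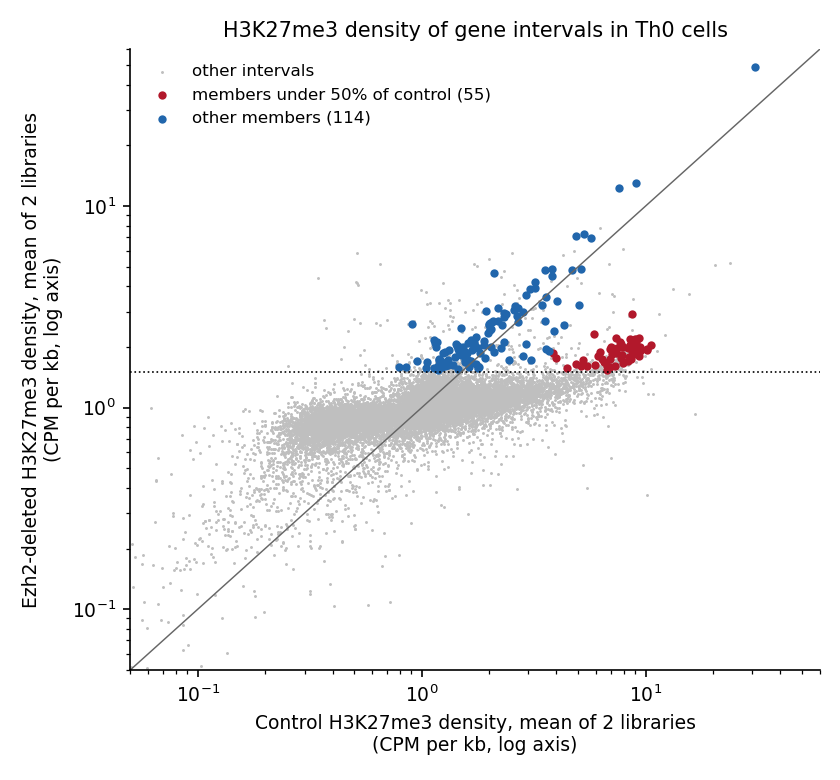
Mean H3K27me3 density of gene intervals in 2 control libraries (horizontal) and 2 Ezh2-deleted libraries (vertical), both in CPM per kb on log axes; intervals under 0.05 on either axis or with an excluded name are not drawn, and gray points over the dotted limit of 1.5 had fewer than 20 reads or 1 library under the limit. The 55 members under 50% of control sit at control densities of 3.86 to 10.5, and most of the 114 others lie near the diagonal line of equal density.

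Of the 55 reduced members, 26 had symbols of 4 classes of developmental factors and signals. Among these, 15 were homeobox genes (among them Tlx2, Cdx2, Six2, Pitx1, Gsx2, Barx1, Dlx1, Mnx1, Isl2, Lhx1, Tlx1, Rax, Lhx3 and Pdx1), which encode DNA-binding regulators of body plan and organ formation. Another 8 were Sox, Fox, Prdm and related factors (Foxc2, Osr2, Prdm8, Sox14, Foxi3, Foxd4, Foxf1 and Prdm12), 1 was the basic helix-loop-helix gene Hes2, and 2 encode secreted signals (Gdf7 and Fgf4). Of the 20432 intervals outside the name groups, homeobox genes made up 0.994% and the Sox, Fox, Prdm and related class 0.764%. The basic helix-loop-helix class made up 0.308% and the signalling class 0.509%. None of the 114 others had a symbol of these 4 classes, and at those shares few would be found among 114. The signalling class holds Wnt, Fgf, Bmp, Gdf and similar symbols but not Smo, described below. Of the other 29 reduced members, 23 were in no class, among them Tbr1, a T-box factor of cortical neurons, Acta1, skeletal muscle actin, Pyy, a gut peptide hormone, and the tight junction genes Cldn3 and Cldn7. The remaining 5 were predicted or clone-named genes and 1 was Cyp26a1, the retinoic acid hydroxylase. The 15 homeobox members were 7.39% of 203 homeobox intervals, where 0.827% of all intervals outside the name groups were members. They were 11.5% of the 131 homeobox intervals over the limits in both controls, where 127 of all 3599 such intervals were members.

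Control densities of these 55 were high and their Ezh2-deleted densities lay narrowly over the limit. The median was 6.44 in control 33 (3.47 to 9.36), 9.13 in control 7 (3.87 to 12.1), 1.60 in Ezh2-deleted 10 (1.51 to 2.23) and 2.05 in Ezh2-deleted 9 (1.57 to 4.27). The Ezh2-deleted libraries lay below both controls in all 55. Isl2, a LIM homeobox gene of motor neurons, had 8.63 and 11.7 CPM per kb in controls 33 and 7 and 1.68 and 2.17 in Ezh2-deleted 10 and 9, the lowest remainder of any member at 19.0%. Galr2, a galanin receptor, had 8.09 and 12.1 in controls and 1.92 and 1.98 without Ezh2. Cd14, the lipopolysaccharide co-receptor of myeloid cells, had 7.51 and 11.3 in controls and 1.51 and 2.11 without Ezh2. These members were named for their low ratios, and any member had to lie over the limit, so their similar remainders follow from the selection. The 188 non-members marked in both controls with control densities of at least 6 had a median of 21.7% of control.

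Gsx2, a forebrain homeobox gene, had 9.36 and 11.7 in controls and 1.53 and 2.59 without Ezh2. Lhx1, which acts in the head organizer and kidney, had 8.08 and 10.7 in controls and 1.55 and 2.25 without Ezh2. Cdx2 had 7.13 and 10.0 in controls and 1.85 and 2.51 without Ezh2. In all of these library 9 was higher than library 10, and library 10 held Gsx2 and Lhx1 close to the limit. Tlx2, a homeobox gene of enteric neurons, had the largest such gap, with 6.0 and 11.5 in controls, 1.54 in library 10 and 4.27 in library 9.

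The 2 libraries of a genotype differed at these 55 in the same way throughout. Control 7 was above control 33 in 55 of 55 (median ratio 1.4), and Ezh2-deleted 9 was above 10 in 49 of 55 (1.24). At the other 114 members the ratios were 1.02 and 1.12, and over 16747 intervals with 20 reads in each library they were 0.939 and 0.954. Intervals with control densities of at least 6 that were marked in both controls and were not members showed the same order, with ratios of 1.39 and 1.46 over 188 intervals. The number of members turned on both: without library 10, 653 intervals met the limits, and without library 9, 355.

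**Figure D2:**
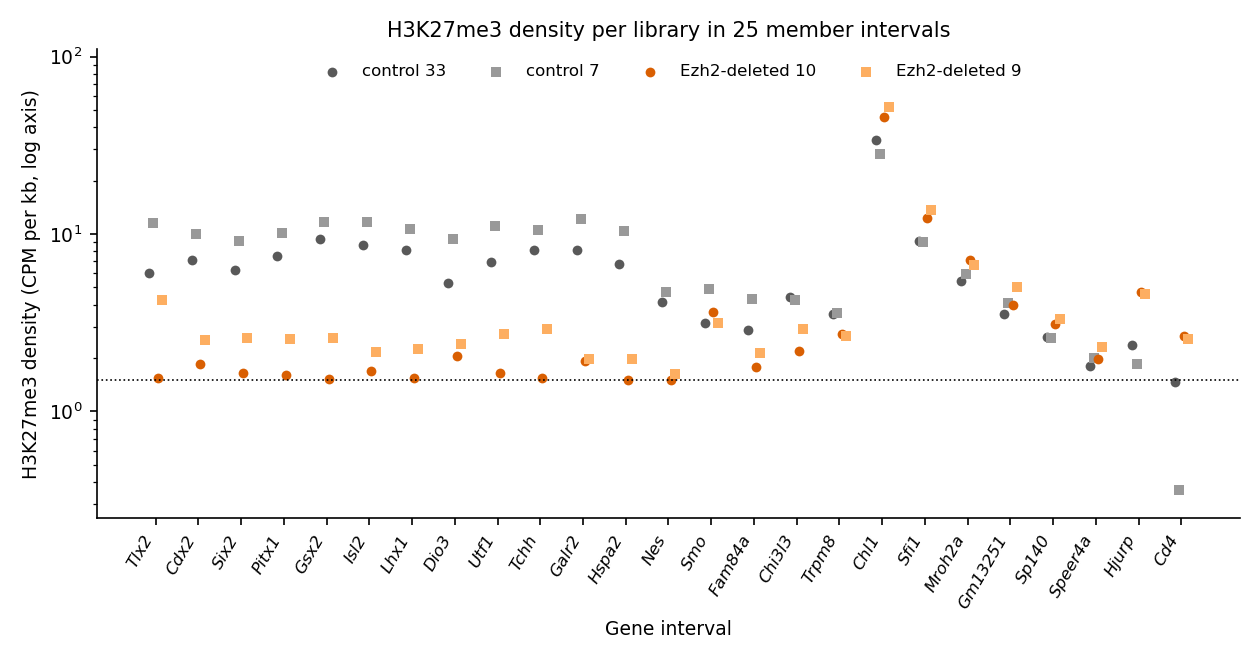
H3K27me3 density in CPM per kb (log axis) of 25 member intervals, with 1 point for each of 2 control and 2 Ezh2-deleted libraries and a dotted line at the limit of 1.5. From Tlx2 to Nes both Ezh2-deleted points lie under both controls, while at Chl1, Sfi1, Hjurp and Cd4 both lie over them.

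How often an interval marked in both controls was also over the limits without Ezh2 increased with its control density. Of 3599 such intervals, 127 were members and 3472 were not. The share of members was 1.52% at control densities of 1.5 to 2, 2.1% at 2 to 3, 3.6% at 3 to 4, 5.08% at 4 to 6, 13.5% at 6 to 8 and 38.6% at 8 to 10, and at 10 and over 4 of 9 were members. From the lowest to the highest bin the median Ezh2-deleted density went from 1.07 to 2.00 CPM per kb, and the median percent of control from 60.9% to 19.3%. Members and other intervals of the same control density lay close together at the top: at 8 to 10 the Ezh2-deleted median was 2.02 in members and 1.79 in the rest.

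**Figure D3:**
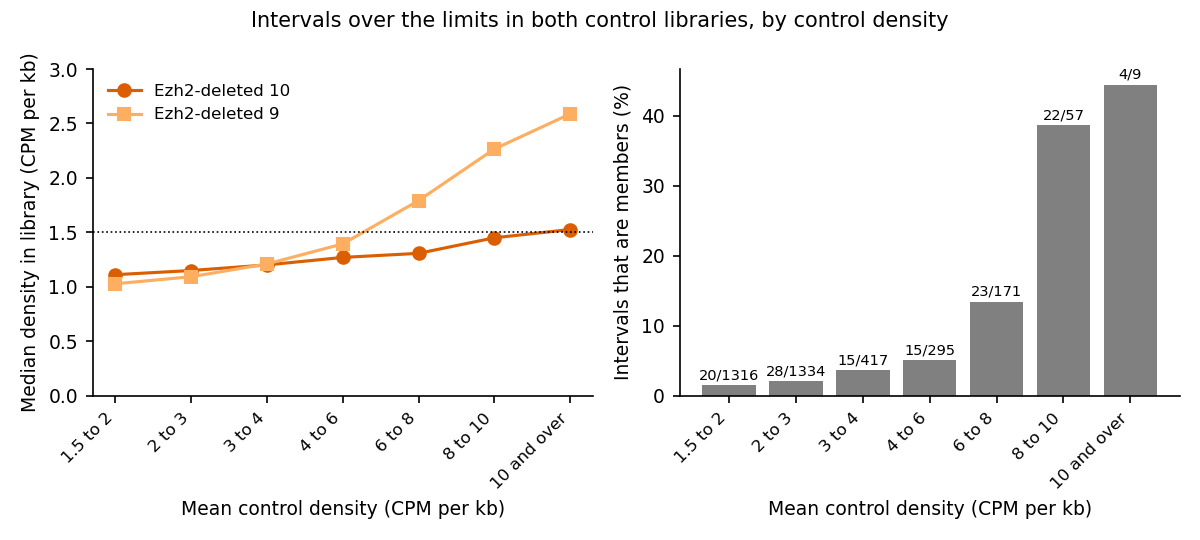
Intervals over the limits in both control libraries, in 7 bins of mean control density (CPM per kb). Left, the median density in each Ezh2-deleted library, which rises from 1.11 to 1.53 in library 10 and from 1.03 to 2.59 in library 9, with the limit of 1.5 dotted; right, the percent of intervals that are members, with counts above the bars, which rises from 1.52% to 44.4%.

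The 114 other members held many copied or poorly named genes. Predicted or clone-named genes made up 49 of them, against 12.6% of the intervals outside the name groups, and members of tandemly duplicated families 21, against 3.98%. In RefSeq 8 of the 49 are zinc finger genes of the kind that the rule left out by name. Annotated pseudogenes made up 16, whereas pseudogenes were 229 of 20432 intervals outside the name groups and none of the 55 reduced members. Genes of near-identical copies share reads, and how multiply aligned reads were counted is not given in the sources used here, so densities and RNA of these genes are uncertain. The median interval was 6566 bases, against 3617 in the 55. Both kinds were shorter than other intervals. The median was 17660 bases over all intervals outside the name groups and 13528 in those marked in both controls that were not members. Density is an average over the whole interval, and the part that length had in membership was not tested.

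**Figure D4:**
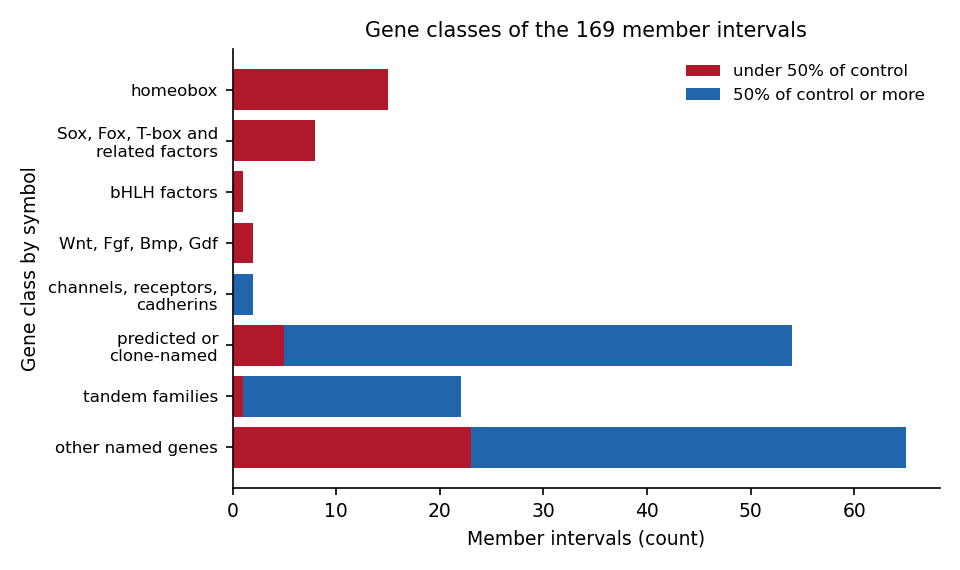
Count of member intervals in each class of gene symbols, split at 50% of control density. The 26 members of the homeobox, Sox/Fox, bHLH and Wnt/Fgf/Bmp/Gdf classes are all under 50% of control, while 49 of 54 predicted or clone-named genes and 21 of 22 members of tandem families are at 50% or more.

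These members also lay together on the chromosomes. Of the 114, 47 stood in 12 runs of at least 3 members with gaps of at most 500 kb, and none of the 55 did. On chromosome 4, 8 of 9 intervals between 145464204 and 146470292 (mm10) were members, among them Znf41-ps, Gm13238 and Gm13251 (RefSeq Zfp992), and so were 7 of 8 between 147021850 and 147809788, among them Rex2. These runs held the 8 zinc finger members, 3 in the first (Gm13251, Gm13242 and Gm13051) and 5 in the second (Gm13139, Gm13152, Gm13154, Gm13157 and 2610305D13Rik). The Speer family, spermatogenesis-associated genes, gave 3 runs on chromosome 5. Runs on chromosome 17 held Smok2a, Smok2b and Tcp10c, and on chromosome 11 Pisd-ps1, Sfi1 and Drg1. Median densities in the larger chromosome 4 run were 3.06 in control and 3.46 without Ezh2.

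The highest densities in Ezh2-deleted cells were in this kind. Chl1 had 33.8 and 28.2 CPM per kb in controls 33 and 7 and 45.8 and 52.0 in Ezh2-deleted 10 and 9, and took 0.626% to 1.16% of all counted reads of a library. Both neighbours of Chl1 on chromosome 6, Cntn3 and Cntn6, were at 0.880 to 1.27 in every library. Sfi1, a centrin-binding protein gene that overlaps another interval, had 9.12 and 8.97 in controls and 12.3 and 13.7 without Ezh2. Pisd-ps1 and Pisd-ps2, pseudogenes of phosphatidylserine decarboxylase on chromosomes 11 and 17, had control means of 7.59 and 4.91 and Ezh2-deleted means of 12.3 and 7.10. In each of these both Ezh2-deleted libraries were over both controls, at 143% to 162% of control.

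Drg1, a GTPase gene whose interval overlaps that of Sfi1, had 3.56 and 3.57 in controls and 4.47 and 5.18 without Ezh2. Asmt, 4930468A15Rik, Cdr1 and 3632454L22Rik were the members on chromosome X. The X chromosome differed between libraries of one genotype, with a ratio of median X to median autosomal density of 0.538 in control 33, 1.39 in control 7, 0.971 in Ezh2-deleted 10 and 0.800 in Ezh2-deleted 9. For 4930468A15Rik the densities were 5.02 and 5.55 in controls and 7.38 and 7.19 without Ezh2. Asmt, which makes melatonin, had 2.74 and 3.66 in controls and 3.78 and 4.61 without Ezh2, Cdr1 had 1.01 and 2.47 and then 1.83 and 2.21, and 3632454L22Rik had 1.04 and 2.63 and then 1.99 and 1.76. Control 7 was over control 33 in all 4, as in the X ratio, and Ezh2-deleted 10 was over 9 in 2 of 4.

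That the 114 lay somewhat over their control level depends on the scaling. The median log2 ratio of Ezh2-deleted to control density was 0.28 in these members and 0.20 over the 19159 intervals outside the name groups with reads when libraries were scaled by size alone; over all 22269 intervals, those without reads included, it was 0.14. With TMM scaling it was 0.06 in these members and -0.01 over the same 19159. In the 55 reduced members it was -2.01 and, with TMM, -2.23. The 114 thus stood over the median of the 19159 intervals by less than 0.1 at both scalings, and the 55 stood far under it.

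A run on chromosome 1 held 3 neighbours that differed. Mroh2a had 5.44 and 5.93 in controls and 7.16 and 6.71 without Ezh2. Hjurp, the chaperone that deposits the centromeric histone CENP-A, had 2.37 and 1.86 in controls and 4.71 and 4.61 without Ezh2, or 221% of control. Trpm8, a cold-sensing channel gene that starts just beyond Hjurp, had 3.52 and 3.59 in controls and 2.73 and 2.65 without Ezh2, or 75.7%. Beyond Trpm8, Spp2 went from a control mean of 2.05 to 1.16. The chitinase-like genes Chi3l3 and Chi3l4 on chromosome 3 were at 59.2% and 61.4% of control, with control means of 4.32 and 3.89. Members of this kind thus included some with lower density in both Ezh2-deleted libraries (14 of 114).

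Cd4, the co-receptor gene that defines these cells, had the highest ratio of any member. Its density was 1.46 in control 33, 0.359 in control 7, 2.65 in Ezh2-deleted 10 and 2.56 in Ezh2-deleted 9, or 287% of the control mean. Both Ezh2-deleted libraries were over both controls, and the controls differed from each other by a factor of 4.07, the highest such ratio of control 33 to 7 among 16717 autosomal intervals with 20 reads in each library, where the median was 1.08. Its neighbours did not share this level: Gpr162 was at 0.689 to 0.870 and Lag3 at 0.802 to 1.08 in Ezh2-deleted libraries. Lag3 did share the direction, with means of 0.408 in controls and 0.939 without Ezh2 (ratio 2.30), while Gpr162 fell from 2.15 to 0.780. All other CD4 T cell markers listed also had higher means without Ezh2, such as Lck at 0.386 and 0.959. Among the 16717 autosomal intervals the ratio of Cd4 to its control ranked 109. A Cre named for Cd4 is carried by the Ezh2-deleted mice only, so the Cre construct and the loss of Ezh2 cannot be told apart at the Cd4 interval. Cd4 was the only member among 89 T cell regulator and receptor genes listed.

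In RNA most members were silent in both genotypes. Of 169, 67 (39.6%) had no read in any of 12 libraries, against 18.8% of all intervals outside the name groups; 0 reads allow up to 0.105 to 0.137 CPM by library. Enough reads for a test were found in 40 members (23.7%), 7 of the 55 and 33 of the 114, against 60.1% of all intervals and 29.1% of the 3472 marked in both controls that were not members. In bulk RNA, fewer cells of a type and less RNA per cell cannot be told apart. Tests were edgeR's quasi-likelihood tests over 12845 genes with Benjamini-Hochberg adjustment.

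The homeobox members stayed near zero after loss of Ezh2. Of 15, 13 had under 0.2 CPM in each of the 4 group means, and Cdx2, Rax, Tlx1 and Tlx2 had no read in any library. Six2, a regulator of kidney precursors, had 0.651, 0.853 and 0.382 CPM in the Th0 controls and 0.348, 0.817 and 0.879 in the Ezh2-deleted libraries, so the groups overlapped (adjusted p = 0.969). Over all 55 reduced members, 45 had under 0.1 CPM in both Th0 group means.

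In Th0 cells 3 of 40 tested members rose and 4 fell. Over all genes tested 12% were called (8.74% higher and 3.22% lower), against 7.5% of members higher and 10% lower. Among 1011 tested genes marked in controls but not members, 320 rose and 13 fell. The difference in these shares was not tested. With the 6 Th0 libraries fitted alone, 3 members rose and 10 fell, where 52.1% of all genes were called (26.5% higher and 25.6% lower). Libraries of the genotypes that did not overlap were common. In Th0 the Ezh2-deleted libraries lay above all controls in 33.2% of genes tested and below in 26.0%, and in iTreg 12.7% and 12.8%. Of the 40 members, 4 lay above and 11 below in Th0, and 5 above and 6 below in iTreg.

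Smo, which transduces the Hedgehog signal across the membrane, had the smallest adjusted p among the members in both cultures. Its RNA was 3.46, 3.63 and 2.94 CPM in the Th0 controls and 22.6, 17.1 and 16.6 in the Ezh2-deleted libraries. All Ezh2-deleted values lay over all controls, with a log2 fold change of 2.45 (SE 0.27, adjusted p = 0.0005). In iTreg it was 1.33, 1.06 and 0.766 CPM in controls and 12.3, 11.1 and 6.57 in the Ezh2-deleted libraries, again without overlap. The log2 fold change was 3.24 (SE 0.29, adjusted p = 0.0001).

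The Smo interval did not have a lower density in step with this. It had 3.15 and 4.88 CPM per kb in controls 33 and 7 and 3.61 and 3.17 in Ezh2-deleted 10 and 9, so the genotypes overlapped and the mean was 84.4% of control. The neighbour Tspan33 went from a control mean of 1.82 to 1.02, and Ahcyl2 on the other side from 0.702 to 0.926. The count covers the whole interval of 25672 bases, so where in the gene the reads lie is not known.

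Nes, which encodes nestin, the intermediate filament of neural progenitors, rose in Th0 from very few reads. The controls held 2, 1 and 1 reads and the Ezh2-deleted libraries held 26, 13 and 19. Summed by group that is 58 against 4 reads, a depth-scaled ratio of 13.9 (95% exact interval 5.14 to 52.6, counting error only), and edgeR's adjusted p was 0.0012. In iTreg the controls held 1, 3 and 2 reads and the Ezh2-deleted libraries 4, 6 and 4 (adjusted p = 0.165). Its H3K27me3 went from 4.16 and 4.72 in controls to 1.51 and 1.62 without Ezh2.

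Hspa2, a heat shock protein gene best known from spermatocytes, had 2.68, 2.00 and 1.87 CPM in the Th0 controls and 4.75, 4.57 and 4.32 in the Ezh2-deleted libraries. The genotypes did not overlap, and the log2 fold change was 1.02 (SE 0.22, adjusted p = 0.0136). In iTreg it rose by 0.88 on the log2 scale (SE 0.22, adjusted p = 0.0206), from 1.84 to 2.70 CPM in controls to 3.29 to 4.75. Its H3K27me3 density was 6.78 and 10.4 in controls and 1.51 and 1.99 without Ezh2. The Th0 call was lost without control 176 or control 177 (adjusted p up to 0.0693), and the iTreg call in 4 of 12 fits that each left out 1 library (up to 0.0891).

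Fam84a fell in both cultures, and its H3K27me3 density was also lower without Ezh2. Its RNA was 4.43, 4.67 and 4.77 CPM in the Th0 controls and 0.888, 0.446 and 0.457 in the Ezh2-deleted libraries, a log2 fold change of -2.98 (SE 0.62, adjusted p = 0.0117). The call was lost without Ezh2KO.174 or Ezh2KO.175 (adjusted p up to 0.0600). In iTreg the controls held 65, 43 and 11 reads and the Ezh2-deleted libraries held 0, 2 and 0 (adjusted p = 0.0026). Control exceeded Ezh2-deleted RNA there by a ratio of 54.7 (95% exact interval 14.8 to 457, counting error only). The interval had 2.90 and 4.31 CPM per kb in controls and 1.77 and 2.14 without Ezh2, 54.4% of control.

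**Figure D5:**
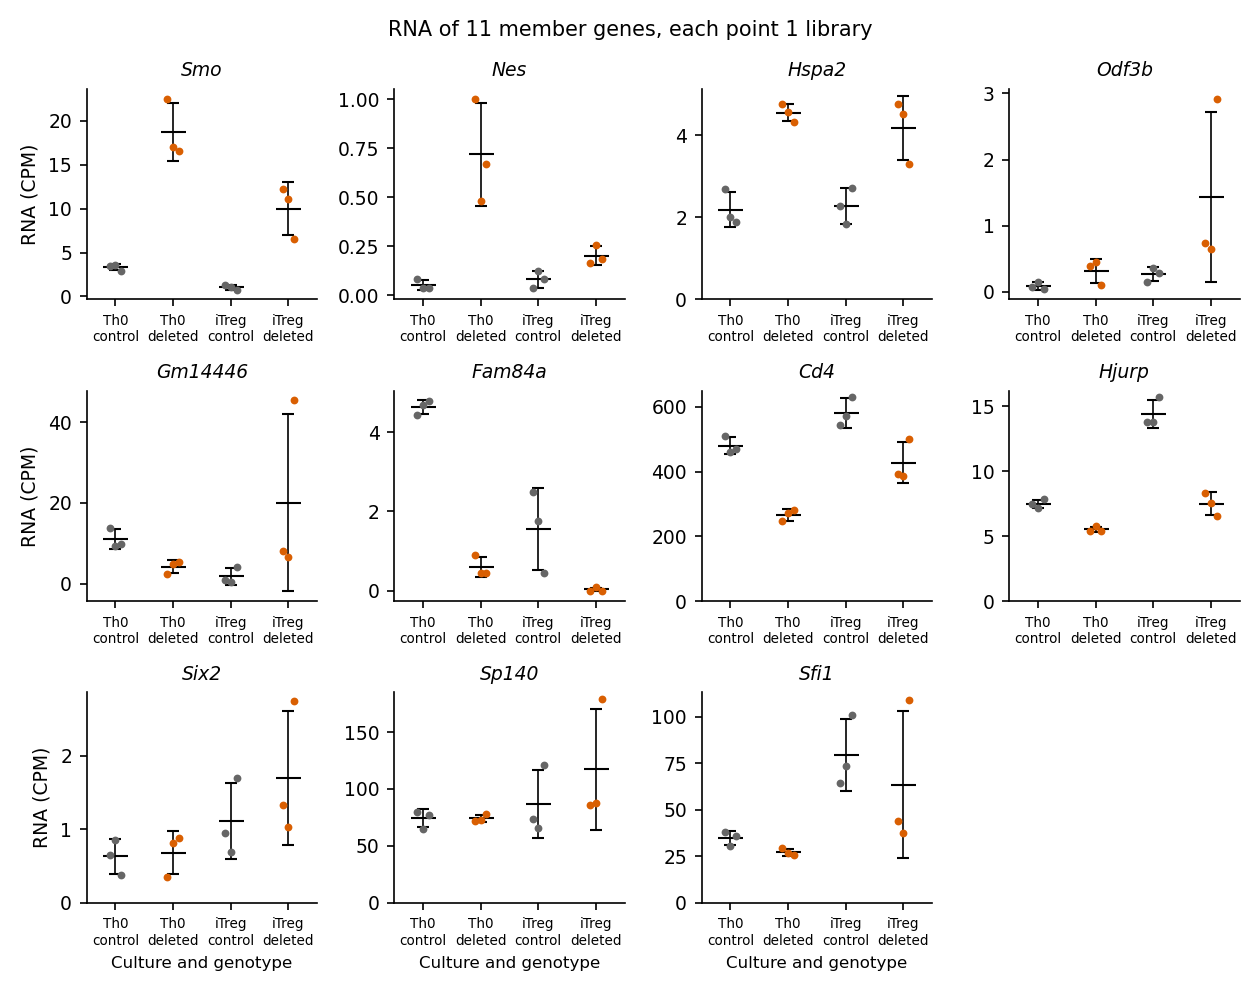
RNA in CPM (linear axes) of 11 member genes; each point is 1 library, with the mean and SD of 3 libraries in black, for Th0 and iTreg cultures of control (gray) and Ezh2-deleted (orange) cells. Smo is higher in every Ezh2-deleted library of both cultures, Fam84a and Cd4 are lower in every one, and iTreg Ezh2KO.165 is the high point of Odf3b, Gm14446, Sp140 and Sfi1.

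Cd4 had the highest RNA of the members per kb of transcript in Th0 controls, 155 CPM per kb, and fell in both cultures. It was 509, 462 and 469 CPM in the Th0 controls and 246, 272 and 281 in the Ezh2-deleted libraries. The groups did not overlap, and the log2 fold change was -0.88 (SE 0.12, adjusted p = 0.0017). In iTreg the controls had 543, 570 and 631 CPM and the Ezh2-deleted libraries had 394, 388 and 501, a log2 fold change of -0.44 (SE 0.12, adjusted p = 0.0368). That iTreg call was lost in 10 of 12 fits that each left out 1 library. Cd4 thus had higher ChIP density and lower RNA in Ezh2-deleted Th0 cells. This pairing was not particular to members. Mean ChIP density also rose at Cd2 (0.376 to 0.954) and Cd5 (0.401 to 0.957), whose RNA fell in Th0. It rose as well at Cd3d, Cd3e, Cd3g, Lck and Zap70, which had no RNA call in Th0. A link between ChIP density and RNA at these genes was not tested. The Th0 sum of CD4 T cell markers given above was also lower, and 3 of these markers fell there (Cd5, Cd2 and Cd4). In iTreg that sum overlapped between genotypes, and Cd3g and Cd3e rose.

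Hjurp fell as well. It had 7.44, 7.16 and 7.83 CPM in the Th0 controls and 5.37, 5.76 and 5.41 in the Ezh2-deleted libraries (log2 fold change -0.47, SE 0.13, adjusted p = 0.0367). In iTreg the controls had 13.8, 13.8 and 15.7 CPM and the Ezh2-deleted libraries had 8.34, 7.55 and 6.57, a log2 fold change of -0.94 (SE 0.13, adjusted p = 0.0008). The genotypes did not overlap in either culture. The iTreg call held in all 12 fits without 1 library, and the Th0 call was lost in 9 of them. The predicted gene Gm10778 fell by 0.35 on the log2 scale in Th0 (SE 0.10, adjusted p = 0.0498) and lost the call in 10 of 12.

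In iTreg 4 of 40 tested members rose (Gm14446, Smo, Odf3b and Hspa2) and 3 fell (Fam84a, Hjurp and Cd4), against 16.7% of all genes called (9.45% higher and 7.26% lower). Among these called members, library iTreg Ezh2KO.165 stood apart in 2. Gm14446 had 0.838, 0.449 and 4.15 CPM in controls and 8.01, 6.73 and 45.5 in the Ezh2-deleted libraries (log2 fold change 3.47, SE 0.94, adjusted p = 0.0301), and its call was lost without control 154 or 155 (adjusted p up to 0.106). Odf3b, a gene named for sperm tail fibres, had 0.152, 0.367 and 0.282 CPM in controls and 0.743, 0.643 and 2.92 in Ezh2-deleted libraries (log2 fold change 2.41, SE 0.71, adjusted p = 0.0436), and lost its call in 9 of 12 such fits. Without iTreg Ezh2KO.165 the fit called 13 members lower in place of 3, and 44.2% of all genes. In Th0 the same fit called 27.1% of all genes in place of 12%. This library also stood apart in some genes outside the members. Ezh1 was at 186 CPM there against 59.4 and 55.5 in Ezh2KO.150 and Ezh2KO.153, and Rbbp7 at 73.2 against 366 and 375. In iTreg control 177 both genes differed from the other controls in the same direction (Ezh1 109 CPM, Rbbp7 204). Zap70 was at 191 CPM in Ezh2KO.165 against 205 and 203. With the 6 iTreg libraries fitted alone, Smo alone was called, where 4.34% of all genes were (2.67% higher and 1.68% lower).

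No member differed between cultures in its response to the deletion by edgeR's adjusted p (0 of 40, against 4.49% of all genes, 1.63% higher and 2.86% lower). At an unadjusted p under 0.05 there were 5 (Cd4, Gm14446, Hjurp, Nes and Slc30a4), DESeq2 called 1 at its adjusted p, and edgeR without iTreg Ezh2KO.165 called 5. In each genotype a replicate number occurs in both cultures, and the fit treated all libraries as independent. Whether a shared number stands for the same mouse, and what that would change in these results, was not tested.

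Several members carried ample RNA in both genotypes. In Th0 controls and Ezh2-deleted cells, RNA per kb of transcript was 112 and 118 CPM per kb for Dynlt1b, a dynein light chain, 88.6 and 77.4 for Drg1, and 63.2 and 69.7 for Sp110, a nuclear body protein. It was 41.8 and 32.3 for Aida. None of these 4 passed the test in Th0. Sp140, the neighbour of Sp110, had 65.1 to 79.7 CPM in Th0 controls and 71.8 to 77.8 in Ezh2-deleted libraries, with densities of 2.62 and 3.21 CPM per kb. All 5 belong to the 114, which held 30 of the 32 members with at least 1 CPM in Th0 controls. Median densities of the 114 were 1.90 CPM per kb in control and 2.08 without Ezh2. Over all intervals outside the name groups they were 0.778 and 0.921.

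Genes of the enzyme complexes themselves were looked at beside the members. Of 13 genes of Polycomb repressive complex 2 and the H3K27 demethylases, none passed edgeR's adjusted threshold in Th0 with all 12 libraries fitted. In iTreg Ezh2 and Kdm6b fell. With the 6 Th0 libraries fitted alone, Jarid2 and Phf19 rose and Ezh2, Suz12, Rbbp4 and Rbbp7 fell, where 52.1% of all genes were called. Jarid2 was at 37.8 to 38.6 CPM in Th0 controls and 68.8 to 78.8 in Ezh2-deleted libraries. Ezh1 was at 29.2 to 34.2 CPM in Th0 controls and 31.4 to 33.8 in Ezh2-deleted libraries. Ezh2 itself, in the fit of 12 libraries, had a log2 fold change of -0.99 in Th0 (SE 0.30, edgeR's adjusted p = 0.0618), with no overlap of its libraries. Of 18 genes of Polycomb repressive complex 1, Bmi1 rose and Phc1 and Phc3 fell in Th0, where 12% of all genes were called. In iTreg Bmi1 and Pcgf5 rose and Pcgf2 and Phc3 fell, where 16.7% were.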

How the data were processed

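H3K27me3 and RNA reads were trimmed with Trimmomatic 0.30 (listed for RNA), aligned to mm10 with Bowtie2 2.1.0 (ChIP) or TopHat2 2.0.6 (RNA), and counted with featureCounts 1.4.2, per the submitters' processing notes. The deposited values are raw read counts per gene, with the interval length given per the file headers; in the ChIP files the length is that of the whole gene body. Depth is the sum of a library's counts. Intervals cover counting error only, since reads carry no molecular identifiers.

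Computed here were CPM and density by library size, RNA tests (edgeR 4.0.16, limma 3.58.1, R 4.3.3, TMM, filterByExpr with a minimum count of 10, robust quasi-likelihood F tests, two-sided, 12 libraries in 1 fit of 4 groups), and DESeq2 1.42.0 as an alternative. The fit was tested on simulated data. A log2 ratio of densities adds 0.1 CPM per kb to both means. Gene classes follow symbols. RefSeq symbols matched 169 of 169 members.

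The members and lists were chosen with earlier results of these data known. Genes were named by highest density, extreme ratio, RNA call, RNA level, nearness to the limit and the top 4 of each class; Trpm8, Sp140, the chitinase-like genes, the promoter genes Tchh and Dio3, the remaining homeobox and factor genes and the members of runs were named after their values were seen.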

Additional observations from a re-analysis of the deposited data

How the results depend on the processing

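The number of members moved with the rule: 5010 at a limit of 1 CPM per kb, 54 at 2, 108 with TMM scaling, and 169 to 653 without one ChIP library. Members over the limits in both controls were 4037, 37 and, without one ChIP library, 132 to 432. The median log2 ratio of members, 0.09, was -0.34 at a limit of 1, 0.29 at 2, 0.0019 with TMM, and -0.55 to 0.14 without one ChIP library. For the 114 it was 0.06 with TMM. At a limit of 2, 23 members were tested in RNA, with 1 higher and 2 lower in Th0 and 1 higher and 2 lower in iTreg. In Th0, lower calls numbered 2 with library-size scaling, 2 without a count filter, and 1 to 5 without one library. In iTreg, without one library, 1 to 4 were higher and 2 to 13 lower. With the 6 libraries of a culture alone, Th0 gave 10 lower (52.1% of all genes called) and iTreg 1 higher and 0 lower (4.34%). For the interaction, DESeq2 called 1 higher, and without one library 0 to 4 were higher and 0 to 1 lower. The median log2 ratio of members thus turned sign at a limit of 1 and without library 10, where the members are other sets; no RNA call of a named member turned direction. Nes and Cd4 in Th0 and Smo in both cultures kept their calls under every alternative in which they were tested. The causes were not tested. No paired analysis of genotype was possible because the genotypes compared within a culture share no replicate numbers. Between the cultures each genotype does have a replicate number in common, and the joint fit did not model this. With 2 ChIP libraries a genotype and no input, background and mark cannot be separated.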
